A study of Mus musculus with 12 samples.

Results

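The proteoglycan and elastic fibre genes of the dermis described here are 10 named genes, taken from the 47643 gene IDs of the deposited tables: Dcn, Lum, Bgn, Fmod, Ogn, Dpt, Sparc, Fbn1, Eln and Igfbp5. All 10 were found in each of 12 poly(A) RNA-seq libraries from C57BL/6 mice aged 10 weeks. The libraries fall into 4 groups of 3: KO epidermis, WT epidermis, KO whole skin and WT whole skin, where KO stands for the conditional Adam17 knockout and WT for wild type. The KO mice carried ADAM17 fl/fl alleles with Sox9-Cre, and no floxed or Cre-carrying control mice were part of the comparison as labelled. Adam17 encodes a membrane protease that sheds growth factors and cytokines. Sox9-Cre acts in the Sox9 lineage, which includes the hair follicle epithelium, so other skin cells may keep the gene. Nothing in the labels states that replicates are separate animals, so the p-values measure the spread between libraries, which may not be that between animals.

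Small leucine-rich proteoglycans such as decorin (Dcn), lumican (Lum), biglycan (Bgn), fibromodulin (Fmod) and osteoglycin (Ogn) bind collagen fibrils and help set their diameter and spacing. They carry chondroitin or dermatan sulfate, or keratan sulfate chains, and several bind growth factors such as TGF-beta. Elastic fibres consist of cross-linked elastin (Eln) on a scaffold of microfibrils built mainly of fibrillin-1 (Fbn1). In skin these proteins come largely from dermal fibroblasts, and the epidermis rests on that matrix without containing much of it.

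Libraries held between 12208522 and 16743144 expected counts, so 3 counts amount to between 0.179 and 0.246 CPM (counts scaled to library size). Adam17 itself averaged 51.5 ± 7.18 CPM in KO skin and 85.8 ± 11.7 CPM in WT skin, and 51.5 ± 6.18 CPM in KO epidermis and 78.5 ± 3.0 CPM in WT epidermis (SD, n = 3 each). The edgeR quasi-likelihood test put it lower in KO in both tissues (adjusted p = 0.00894 in skin and 0.00277 in epidermis). The tissue labels fitted the markers: 16 keratinocyte genes summed to between 76312 and 105535 CPM in KO epidermis and between 62510 and 77567 CPM in WT epidermis, against between 56982 and 69584 CPM in KO skin and between 33939 and 42438 CPM in WT skin. Adipocyte genes, which mark tissue below the epidermis, summed to at most 132 CPM in any epidermis library and to at least 667 CPM in any skin library. Reads of 4 Y-linked genes were present in 2 of 3 KO skin libraries (1728 and 1034 reads). They were also present in all 3 KO epidermis libraries (1781, 213 and 679 reads) and in none of the 6 WT libraries. Male RNA and genotype are thus partly confounded. Xist, which female cells express, was present beside Y-linked reads in Skin KO 3 (319 reads), Epidermis KO 2 (2511 reads) and Epidermis KO 3 (2050 reads). Skin KO 2 held 0 Y-linked reads and Epidermis KO 2 held 213. Whether RNA of several mice was pooled is not stated.

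In KO whole skin, 8 of the 10 genes fell and none rose. The largest falls were those of Igfbp5, which encodes a secreted binding protein of insulin-like growth factors, 7.07-fold, and of Ogn, 6.17-fold. The other 6 that fell did so between 2.66-fold (Lum) and 5.09-fold (Dpt). Bgn and Eln did not pass the test. A gene was called changed where its p, adjusted by Benjamini-Hochberg over all 14805 genes tested, was under 0.05, and by that rule 23.1% of all genes tested were called lower and 22.7% higher. The median log2 fold change was -1.66 over the 10 genes and 0.01 over all genes tested. KO and WT libraries did not overlap for the 8 genes that fell, and among all genes tested 28.4% were lower in KO without overlap. A lower level in whole skin can mean fewer cells that express a gene or less RNA per cell, and bulk libraries cannot tell these apart.

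Promoter sequences of 7 of the 10 genes were in the RefSeq table used (GRCm38.p6). Those of Igfbp5 and Ogn, the 2 genes with the largest falls, and of Bgn, which did not pass, are shown as the 250 bases before the RefSeq start, 5′ to 3′ on the gene's strand. Capitals mark matches to the core promoter motif TATAAA, the Sp1 box GGGCGG, the AP-1 motif TGANTCA, the Smad box CAGAC or the E-box CANNTG, searched on both strands. They lie at chr1:72874866-72875115 (minus strand), chr13:49607765-49608014 (plus strand) and chrX:73483351-73483600 (plus strand).
Igfbp5: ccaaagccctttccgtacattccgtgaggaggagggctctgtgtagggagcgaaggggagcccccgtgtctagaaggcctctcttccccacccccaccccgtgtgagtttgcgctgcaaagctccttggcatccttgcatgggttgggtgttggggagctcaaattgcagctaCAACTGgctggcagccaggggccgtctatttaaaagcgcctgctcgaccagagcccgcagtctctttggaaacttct
Ogn: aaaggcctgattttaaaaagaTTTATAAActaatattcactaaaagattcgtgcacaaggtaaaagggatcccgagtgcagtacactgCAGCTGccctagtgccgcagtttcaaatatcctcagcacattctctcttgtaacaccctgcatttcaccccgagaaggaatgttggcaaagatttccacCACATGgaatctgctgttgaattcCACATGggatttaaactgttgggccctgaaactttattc
Bgn: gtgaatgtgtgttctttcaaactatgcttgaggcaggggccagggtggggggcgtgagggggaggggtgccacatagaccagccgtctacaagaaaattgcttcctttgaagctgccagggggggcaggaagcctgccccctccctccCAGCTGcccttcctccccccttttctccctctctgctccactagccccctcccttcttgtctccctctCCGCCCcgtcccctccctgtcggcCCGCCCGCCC
The Igfbp5 window held 1 E-box, 77 bases before the start. The Ogn window held 3 E-boxes and 2 TATAAA matches on opposite strands that share bases. That stretch lies 229 bases before the start. The Bgn window held 1 E-box and 3 Sp1 boxes read on the opposite strand, 34, 10 and 6 bases before the start. Its GC content was 64.4%, against 58.8% for Igfbp5, 42.0% for Ogn and a median of 52.4% over 32851 mouse promoters of that length. An E-box was present in 6 of the 7 promoters and in 66.2% of all, the Sp1 box in 2 of 7 and in 32.7% of all, the Smad box in 2 of 7 and in 42.2% of all, TATAAA in 1 of 7 and in 12.4% of all, and the AP-1 motif in 0 of 7 and in 6.75% of all. These matches describe letters in a window and do not show binding.

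**Figure D1:**
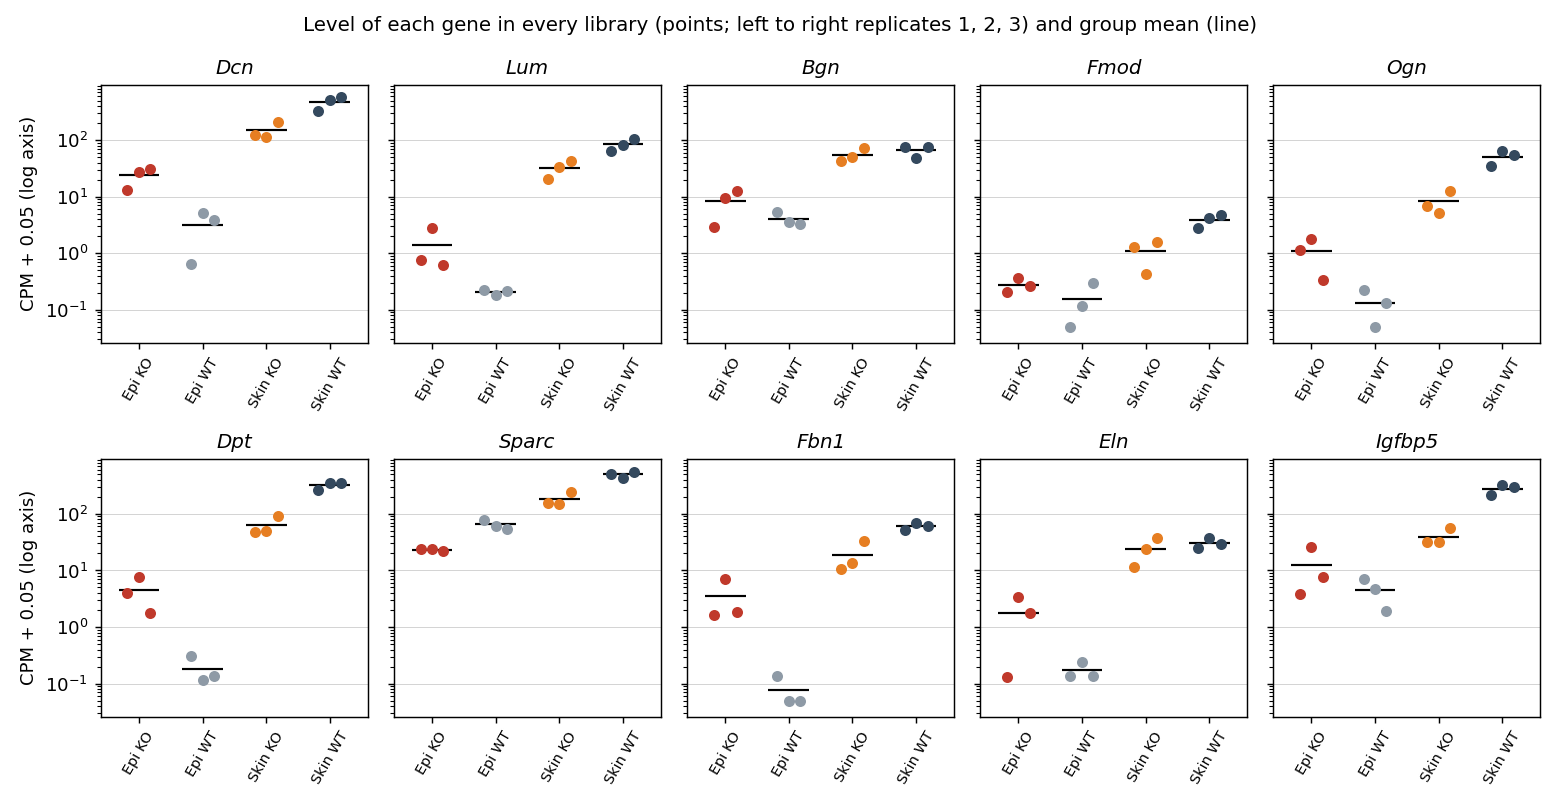
Level of each of the 10 genes (CPM plus 0.05, log axis) in every library, with KO epidermis, WT epidermis, KO skin and WT skin from left to right, points for libraries and a line for the group mean. KO skin lies below WT skin without overlap for 8 genes, Bgn and Eln overlap there, and in epidermis Sparc is lower in KO while 5 genes are higher without overlap.

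Among the proteoglycans, Dcn, the most abundant of them per transcript length in WT skin, had 124, 115 and 209 CPM in KO skin, against 323, 511 and 586 CPM in WT skin. The highest KO library was thus below the lowest WT library. The fall was -1.66 on the log2 scale (SE 0.31, adjusted p = 0.00509, edgeR). Lum, a keratan sulfate proteoglycan that neighbours Dcn on chromosome 10, had 20.5, 32.9 and 41.9 CPM in KO skin, against 64.0, 83.5 and 106 CPM in WT skin. The groups were again apart, and the log2 fold change was -1.41 (SE 0.29, adjusted p = 0.0076, edgeR). The fall of Lum did not pass after removal of the KO libraries with male reads (an estimate of -1.36, adjusted p = 0.0607) or with the share of those reads as a covariate (-1.11, adjusted p = 0.0898). That removal leaves Skin KO 2 as the only KO library, which is then assumed to vary like the WT group. The slope of the covariate rests on the KO libraries alone, since no WT library held such reads.

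Ogn had 6.78, 5.14 and 12.8 CPM in KO skin, against 35, 63.3 and 54.8 CPM in WT skin. Every KO library held less than any WT library, and the log2 fold change was -2.63 (SE 0.38, adjusted p = 0.00195, edgeR). Cenpp overlaps Ogn on the other strand and held between 17 and 68 reads a library. The overlap is one of whole gene spans, and whether exons of the 2 genes overlap was not checked. The strand setting of the counting is not given, so whether any reads of the 2 genes were mixed is not known. Ogn held 351 reads in KO skin and 2674 in WT skin. Fmod was the least abundant of the 10 in skin per transcript length, with 1.25, 0.384 and 1.53 CPM in KO skin, against 2.74, 4.15 and 4.67 CPM in WT skin. Those levels rest on 45 reads in KO and 200 in WT, and the log2 fold change was -1.85 (SE 0.46, adjusted p = 0.0156, edgeR). Without Skin WT replicate 3 the adjusted p of Fmod was 0.0569.

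Bgn, a chondroitin and dermatan sulfate proteoglycan closely related to decorin and encoded on the X chromosome, had 42.9, 50.4 and 71.1 CPM in KO skin, against 74.2, 49.1 and 75.3 CPM in WT skin. The groups overlapped, with Skin WT 2 below Skin KO 2 and 3. Its log2 fold change was -0.27 (SE 0.24, adjusted p = 0.390, edgeR), and 3 libraries a group do not show whether it changed.

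Dpt encodes dermatopontin, a small matrix protein that binds decorin and collagen. It had 48.1, 50.1 and 91.6 CPM in KO skin, against 265, 347 and 355 CPM in WT skin, and fell by 2.35 on the log2 scale (SE 0.29, adjusted p = 0.000999, edgeR). Sparc encodes a collagen-binding glycoprotein of the matricellular kind, which is made by fibroblasts, endothelial cells and other cells. It had 153, 152 and 242 CPM in KO skin, against 500.4, 434 and 561 CPM in WT skin, and its log2 fold change was -1.45 (SE 0.22, adjusted p = 0.00243, edgeR). The 3 KO libraries lay below the 3 WT libraries for both genes.

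Igfbp5 had 31.3, 31.4 and 56.0 CPM in KO skin, against 216, 330.0 and 293 CPM in WT skin. The highest KO library thus held 56.0 CPM and the lowest WT library 216 CPM. Its log2 fold change was -2.82 (SE 0.29, adjusted p = 0.000552, edgeR), the largest of the 10 in size, and it passed under all 18 alternatives run.

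Of the 2 structural genes of elastic fibres, Fbn1 passed the test and Eln did not. Fbn1 had 10.5, 13.4 and 33.1 CPM in KO skin, against 51.4, 68.1 and 61.9 CPM in WT skin, and its log2 fold change was -1.67 (SE 0.42, adjusted p = 0.0154, edgeR). Eln had 11.6, 23.4 and 37.3 CPM in KO skin, against 25.1, 37.5 and 29.1 CPM in WT skin. The Eln groups overlapped, since Skin KO 3 was above Skin WT 1 and 3, and the log2 fold change was -0.34 (SE 0.39, adjusted p = 0.505, edgeR). The Fbn1 call was lost without Skin KO 2 (log2 fold change -1.47, adjusted p = 0.0584, edgeR). It was also lost with the share of Y-linked reads as a covariate (-1.56, adjusted p = 0.141, edgeR), and with that covariate the Eln estimate was 0.08. The slope of that covariate rests on the KO libraries alone, so these values are not a full adjustment for sex. Whether the effects on Fbn1 and Eln differ from each other was not tested.

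The order of the libraries within a group was shared by many of the genes. Skin KO 3 was the highest KO skin library for all 10 genes, and Skin WT 1 the lowest WT skin library for 8 of 10. Skin WT 1 also held the most RNA of skeletal muscle: 12 muscle genes summed to 73358 CPM there, and over the group to between 8675 and 73358 CPM, against between 661 and 3294 CPM in KO skin. Without Skin WT 1, and likewise without Skin KO 3, 8 of the 10 genes were called lower.

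**Figure D2:**
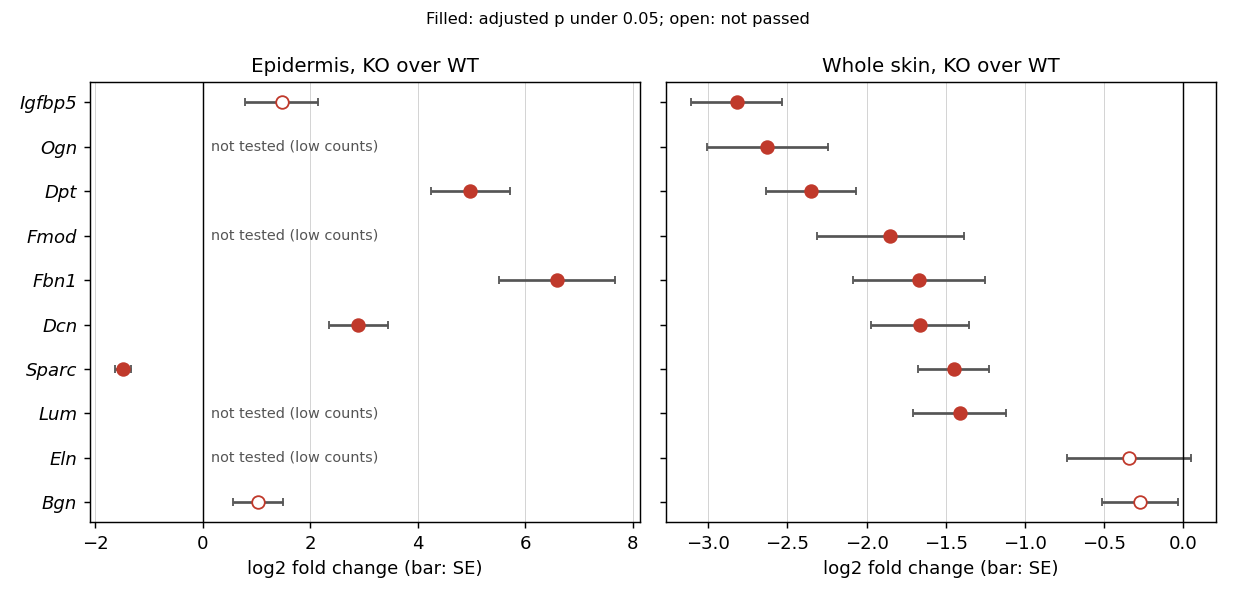
Log2 fold change of KO over WT (points, with bars of 1 SE) for the 10 genes in epidermis (left) and whole skin (right), on axes of different range; filled points passed the adjusted p of 0.05. In epidermis Sparc is lower, Dcn, Dpt and Fbn1 are higher, and 4 genes had too few counts for a test, while in skin 8 genes lie between -2.82 and -1.41 and Eln and Bgn near 0.

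The markers of other cell types moved in KO skin as well. Of 18 tested genes of fibroblast identity that encode no matrix protein, 15 fell and none rose, with a median log2 fold change of -1.40. The list summed to between 637 and 847 CPM in KO skin and between 1117 and 1313 CPM in WT skin. It also summed to between 462 and 502 CPM in WT epidermis, so its sum does not measure fibroblasts alone. Between the WT tissues, 16 of its 18 tested genes were lower in epidermis, 1 was higher and 1 did not pass. Endothelial genes (11 of 12 lower) summed to between 61.4 and 78.6 CPM in KO skin and between 178 and 196 CPM in WT skin. Adipocyte genes (10 of 12 lower, 1 higher) summed to between 667 and 895 CPM in KO skin and between 3005 and 3680 CPM in WT skin. Of 14 leukocyte genes 6 were higher, 1 was lower and 7 did not pass, with a median log2 fold change of 0.36. They summed to between 8909 and 10053 CPM in KO skin and between 303 and 385 CPM in WT skin, but S100a8 and S100a9, calprotectin genes that activated keratinocytes express as well, averaged 3410 and 5708 CPM in KO skin and 0.877 and 1.17 CPM in WT skin. The other 12 leukocyte genes, a split chosen after seeing the data, summed to between 228 and 464 CPM in KO skin and between 302 and 382 CPM in WT skin, and these groups overlapped. Mitochondrial genes took 2.06% to 2.89% of counts in KO skin and 3.85% to 4.34% in WT skin. No gene of these 4 lists was at 0 reads in either skin group, and the part of these cell types or of the mitochondrial share in the falls of the 10 genes was not tested.

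The levels were therefore also set against the fibroblast identity genes, as the log2 ratio of a gene's CPM to the geometric mean of those 18 genes in the same library. This denominator, too, may not measure fibroblasts alone. Igfbp5 averaged 1.67 on this scale in KO skin and 3.17 in WT skin, a difference of -1.50. Ogn differed by -1.34 and Dpt by -1.04, and for these 3 genes the KO libraries lay below the WT libraries without overlap. Bgn went the other way, with 1.95, 2.34 and 2.19 in KO skin, against 1.48, 0.59 and 1.17 in WT skin, a difference of 1.08 without overlap. Dcn, Lum, Fmod, Sparc, Fbn1 and Eln overlapped, with differences between -0.70 (Fmod) and 0.88 (Eln). An exact permutation test over 3 against 3 libraries cannot go below p = 0.1, which these 4 genes reached (adjusted p = 0.25 over the 10 genes, two-sided), so none passed. The skin KO and WT libraries of the same number deviated in like directions, although the labels state no pairing. Differences were therefore also taken, after seeing the data, within the 3 same-numbered pairs. Dcn, Ogn, Dpt and Igfbp5 were lower in KO in all 3 pairs, Bgn and Eln were higher in all 3, and Lum, Fmod, Sparc and Fbn1 were mixed. For Dcn the 3 differences were -0.12, -0.44 and -0.38, and an exact paired permutation test over 3 pairs cannot go below p = 0.25, two-sided. With 11 fibrillar collagen and related collagen genes in place of the fibroblast genes, Ogn, Dpt, Sparc, Fbn1 and Igfbp5 were lower without overlap and Bgn was higher by 0.75.

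**Figure D3:**
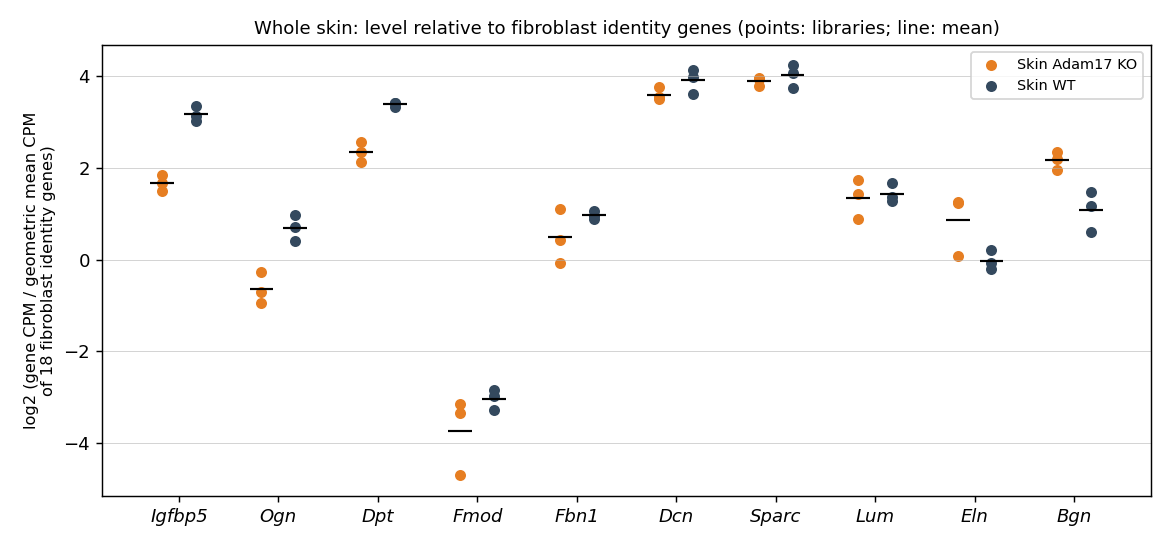
Log2 ratio of each gene's CPM to the geometric mean CPM of 18 fibroblast identity genes in whole skin, KO (orange) left of WT (dark) for each gene, with points for libraries and lines for means. Igfbp5, Ogn and Dpt are lower in KO without overlap, Bgn is higher without overlap (1.08 on the log2 scale), and the other 6 overlap.

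The 12 other small leucine-rich proteoglycan genes showed both directions in KO skin: of 9 tested, 5 fell and 3 rose, with a median of -1.45. The family lies partly in gene clusters. On chromosome 13 Ecm2, Aspn (asporin) and Omd (osteomodulin) precede Ogn, with gaps of 11.7 to 15.2 kb between neighbours. All 3 fell in KO skin, with log2 fold changes of -2.19 (SE 0.45, adjusted p = 0.00759), -1.45 (SE 0.37, adjusted p = 0.0172) and -2.70 (SE 0.71, adjusted p = 0.0192, edgeR). Prelp, the neighbour of Fmod on chromosome 1, averaged 9.99 CPM in KO skin and 32.5 CPM in WT skin (log2 fold change -1.70, adjusted p = 0.00442). Kera and Epyc, the neighbours of Lum, held at most 18 reads in any group and were not tested. Podn, which encodes podocan, fell by 1.93 on the log2 scale (adjusted p = 0.00225).

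Tsku, which encodes the secreted leucine-rich protein tsukushi, rose to 17.8 ± 1.81 CPM in KO skin, against 4.97 ± 0.861 CPM in WT skin (SD, n = 3 each, log2 fold change 1.83, adjusted p = 0.00053, edgeR). Podnl1 held 77 reads in KO skin and 1 read in WT skin, a ratio of 89.9 (95% exact interval 15.7 to 3595, counting error only). Chad, known from cartilage, rose by 3.76 on the log2 scale (adjusted p = 0.0076) from low levels, with 61 reads in KO skin and 5 in WT skin. The members of the family that rose had a mean of at most 4.97 CPM in WT skin. With so few WT reads, Podnl1 and Chad could pass the filter only by being high in KO. Omd, which fell, was also low in WT skin, at a mean of 2.49 CPM.

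The machinery of elastic fibre assembly fell with Fbn1 more often than not: of 24 tested genes 16 fell and 2 rose, with a median of -1.09. Fbln5 encodes fibulin-5, which brings elastin to microfibrils, and averaged 6.62 ± 0.260 CPM in KO skin and 20.2 ± 3.11 CPM in WT skin (SD, n = 3 each, log2 fold change -1.61, adjusted p = 0.00054, edgeR). Adamtsl4, which encodes a microfibril-associated protein, averaged 5.57 ± 1.91 CPM in KO skin and 30.3 ± 4.72 CPM in WT skin (log2 fold change -2.44, adjusted p = 0.000696). Fbn2, the fibrillin prominent in development, ran opposite to Fbn1 in whole skin. It averaged 18.7 ± 2.07 CPM in KO skin and 0.400 ± 0.0789 CPM in WT skin (log2 fold change 5.54, SE 0.23, adjusted p = 2e-05). In epidermis, where Fbn1 rose too, Fbn2 averaged 26.4 ± 3.78 CPM in KO and 0.294 ± 0.148 CPM in WT (log2 fold change 6.38, adjusted p = 2.22e-06). Fbn2 held 20 reads in WT skin and 12 in WT epidermis. It could thus pass the filter of both genotype comparisons only by being high in KO. In KO mice Fbn2 was higher in epidermis than in skin (log2 fold change 0.49, adjusted p = 0.0369, edgeR).

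**Figure D4:**
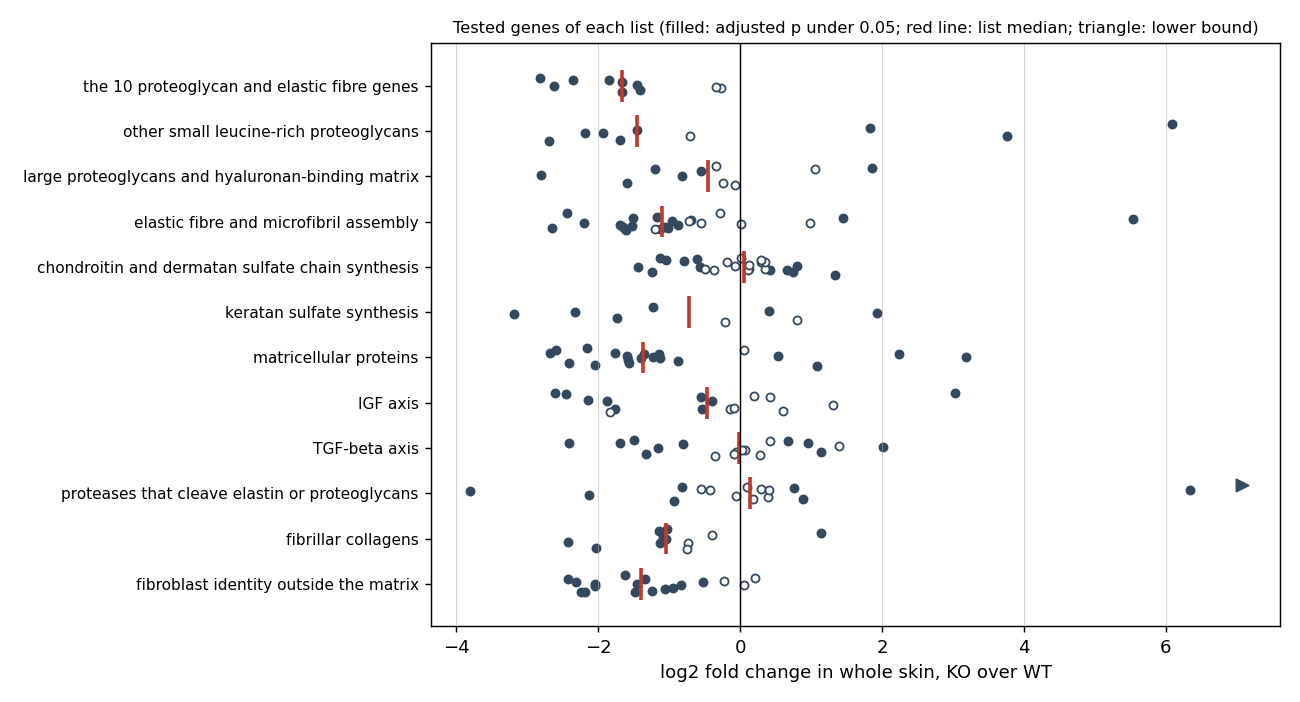
Log2 fold change of KO over WT in whole skin for every tested gene of the 10 genes, of 10 related lists and of the fibroblast identity genes, with filled points for an adjusted p under 0.05, a red line for each list's median and a triangle for the lower bound of Mmp13. The 10 genes have a median of -1.66, fibroblast identity genes -1.40, matricellular proteins -1.37 and chondroitin and dermatan sulfate synthesis 0.06.

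Other parts of the same matrix were described by lists. Of 20 tested genes of matricellular proteins, the class of Sparc, 15 fell and 4 rose (median -1.37). Sparcl1, the closest relative of Sparc, averaged 7.72 ± 1.79 CPM in KO skin and 46.9 ± 9.80 CPM in WT skin (SD, n = 3 each, log2 fold change -2.60, adjusted p = 0.000403, edgeR), Smoc1 fell by 2.04 and Ecm1 by 1.56 on the log2 scale. Of 11 collagen genes 7 fell and 1 rose (median -1.04), among them Col5a3 (-2.43), Col6a1 (-1.15) and Col14a1 (-2.03). Col1a1 averaged 209 CPM in KO skin and 274 CPM in WT skin and did not pass (adjusted p = 0.380). Of 10 tested genes of large and cell-surface proteoglycans 5 fell and 1 rose (median -0.45): Gpc3 fell by 2.81 and Sdc2 by 1.2 on the log2 scale, while Srgn, the proteoglycan of leukocyte granules, rose by 1.86.

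The enzymes that build the sugar chains showed no common direction. Of 24 tested genes of chondroitin and dermatan sulfate synthesis 5 rose and 7 fell (median 0.06). Chsy1, a chondroitin synthase, averaged 14.7 ± 1.30 CPM in KO skin and 5.81 ± 0.581 CPM in WT skin (SD, n = 3 each, log2 fold change 1.33, adjusted p = 0.000994, edgeR), whereas the sulfotransferase genes Chst15 and Chst12 fell by 1.24 and 0.80 on the log2 scale. Among 8 tested genes of keratan sulfate synthesis 2 rose and 4 fell (median -0.72). Chst1, whose product sulfates keratan sulfate, averaged 2.0 CPM in KO skin and 18.3 CPM in WT skin (log2 fold change -3.19, adjusted p = 0.000848), Fut8 fell by 1.74 and B3gnt7 rose by 1.93 on the log2 scale.

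Igfbp5 stood among other genes of the IGF axis that fell, 8 of 16 tested, while 1 rose (median -0.47). Igfbp3 averaged 67.8 ± 8.45 CPM in KO skin and 300.4 ± 3.31 CPM in WT skin (SD, n = 3 each, log2 fold change -2.15, adjusted p = 0.000101, edgeR). Igfbp6 fell by 2.61 and Igf1, the ligand, by 1.87 on the log2 scale. Of 18 tested genes of the TGF-beta axis 4 rose and 6 fell (median -0.02): Skil, which encodes a repressor of Smad signalling, rose by 2.02, and Tgfb2 and the procollagen protease enhancer gene Pcolce2 fell by 1.5 and 2.42 on the log2 scale.

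Among 16 tested genes of proteases known to cleave elastin or proteoglycans 4 rose and 4 fell (median 0.14). Mmp12, the macrophage elastase, averaged 46.7 ± 25.4 CPM in KO skin and 0.601 ± 0.489 CPM in WT skin (SD, n = 3 each, log2 fold change 6.34, adjusted p = 0.000748, edgeR). With 28 reads in WT skin, Mmp12 could pass the filter only by being high in KO. Mmp13, a collagenase, held 346 reads in KO skin and 0 in WT skin, at least 135-fold higher when the WT group is set to 3 reads. Htra3, which encodes a secreted serine protease, fell by 2.13 on the log2 scale. Beside these proteases, 6 of 14 leukocyte genes rose and 1 fell, at the levels given above.

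In KO epidermis the direction was different from that in whole skin for part of the genes. Of the 10 genes, 6 passed the filter on low counts in the epidermis comparison, and of these Dcn, Dpt and Fbn1 rose, Sparc fell, and Bgn and Igfbp5 did not pass. Among all 13547 genes tested there, 28.4% were called higher and 23.1% lower. Dcn, Lum, Ogn, Dpt and Fbn1 were higher in KO without overlap, as were 33.6% of all genes tested, but Lum and Ogn were among the 4 genes too low to test. Low genes pass this filter only through a group in which they are high, so the count of 3 describes 6 genes and not all 10.

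Sparc had 23.6, 23.5 and 22.3 CPM in KO epidermis, against 78.9, 61.0 and 55.1 CPM in WT epidermis. All KO libraries lay below all WT libraries, and the log2 fold change was -1.49 (SE 0.15, adjusted p = 0.000109, edgeR). In the 2 tissues its change was of like size, -1.49 in epidermis and -1.45 in skin, and the test of the difference gave -0.04 (SE 0.27, adjusted p = 0.938), which does not show the effects to be equal. Per transcript length, Sparc was also the gene of the 10 with the highest level in WT epidermis.

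Dcn had 13.2, 27.6 and 31.0 CPM in KO epidermis, against 0.596, 5.03 and 3.79 CPM in WT epidermis. The lowest KO library was above the highest WT library, and the log2 fold change was 2.90 (SE 0.54, adjusted p = 0.00235, edgeR). Dpt had 4.02, 7.47 and 1.70 CPM in KO epidermis, against 0.256, 0.0653 and 0.0841 CPM in WT epidermis, where it rested on 5 reads in all (log2 fold change 4.98, SE 0.74, adjusted p = 0.000752). Fbn1 had 1.58, 6.91 and 1.77 CPM in KO epidermis, against 0.0852, 0 and 0 CPM in WT epidermis. That is 131 reads against 1 read, a ratio of 124 with a 95% exact interval from 21.9 to 4944 for counting error only, and the edgeR test passed (adjusted p = 0.00121).

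Bgn had 2.84, 9.48 and 12.4 CPM in KO epidermis, against 5.37, 3.53 and 3.28 CPM in WT epidermis (log2 fold change 1.03, SE 0.47, adjusted p = 0.0954, edgeR). Igfbp5 had 3.79, 26.2 and 7.59 CPM in KO epidermis, against 6.98, 4.70 and 1.85 CPM in WT epidermis (log2 fold change 1.47, SE 0.68, adjusted p = 0.1). In both cases Epidermis KO 1 lay within or below the WT range. Without that library both genes passed (adjusted p = 0.00471 for Bgn and 0.0307 for Igfbp5), and 6 genes were called higher in place of 3. Without Epidermis KO 3 the estimate of Bgn was 0.60 (adjusted p = 0.324), and without Epidermis KO 2 that of Igfbp5 was 0.34 (adjusted p = 0.612), so both estimates depend on single libraries.

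The 4 untested genes were low in both epidermis groups. Lum held 51 reads in KO epidermis and 6 in WT epidermis, and Eln 66 and 5 reads. Ogn held 40 reads in KO epidermis and 3 in WT epidermis, a ratio of 12.6 with a 95% exact interval from 4.03 to 63.9 for counting error only. Fmod held 9 reads in KO epidermis and 4 in WT epidermis, which is near the limit of 3 counts a library. Eln was at 0.0789 CPM in Epidermis KO 1 and at 3.30 and 1.70 CPM in the other 2 KO libraries, so its groups overlapped.

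Fibroblast and collagen genes moved in both directions in KO epidermis, more of them up than down among those tested. Col1a1 averaged 14.6 CPM in KO epidermis and 0.852 CPM in WT epidermis, and Col3a1 averaged 27.8 CPM in KO and 1.14 CPM in WT. Of 10 tested collagen genes 7 rose and 1, Col6a1, fell (log2 fold change -1.88). Of 10 tested fibroblast identity genes 6 rose and 3 fell. Among all genes tested in epidermis, 28.4% were called higher and 23.1% lower. Pdgfra and Pi16 are named here after their values were seen. Pdgfra held 48 reads in KO epidermis and 6 in WT epidermis, and Pi16 held 197 and 4 reads. The fibroblast list summed to between 531 and 688 CPM in KO epidermis and between 462 and 502 CPM in WT epidermis, with 0 of its 19 genes at 0 reads in KO and 1, Twist2, in WT. Leukocyte genes, 11 of 14 higher, summed to between 3494 and 11135 CPM in KO epidermis and between 61.7 and 73.0 CPM in WT epidermis, and without S100a8 and S100a9 to between 162 and 309 CPM in KO and between 59.2 and 70.8 CPM in WT. Mitochondrial genes took 6.23% to 10.5% of counts in KO epidermis and 2.0% to 3.3% in WT epidermis. The part of these cells, or of the mitochondrial share, in the levels of the 10 genes was not tested.

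As a share of the level in skin of the same genotype, Dcn in KO epidermis was at 16.0%, Bgn at 15.0%, Fbn1 at 18%, Ogn at 12.8%, Dpt at 6.95%, Eln at 7.02%, Lum at 4.21% and Igfbp5 at 31.7%. Fmod was at 21.8%, from 9 reads in KO epidermis. Among fibroblast markers, Pdgfra and Pi16 were at 16.0% each, Pdgfrb at 16.2%, Prrx1 at 8.13% and Twist2 at 3.17%, the last from 3 reads. These markers are only a part of the fibroblast list. Of its 18 tested genes, 10 were lower in KO epidermis than in KO skin, 2 were higher and 6 did not pass (median log2 fold change -1.65). Col1a1 was at 6.99%, Col3a1 at 6.11%, the adipocyte gene Adipoq at 0.616% and the muscle gene Acta1 at 0.728%. In WT epidermis the same share was 0.662% for Dcn, 6.13% for Bgn, 0.0470% for Fbn1 and 0.166% for Ogn. Dpt was at 0.0419% there, Eln at 0.398%, Lum at 0.185% and Igfbp5 at 1.61%, and Fmod at 2.75%, from 4 reads. Of the same markers, Pdgfra was at 0.647%, Pi16 at 0.0534%, Pdgfrb at 1.01% and Prrx1 at 0.166%. Each of these markers held at most 6 reads in WT epidermis, and Twist2 held 0. Sparc was the only one of the 10 whose share was not higher in KO, at 12.7% in KO and 13.0% in WT.

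Tested directly, all 10 genes were lower in WT epidermis than in WT skin, where 25.3% of all genes tested were called lower. The smallest difference was that of Sparc (log2 fold change -2.94, adjusted p = 4.21e-05, edgeR). The most extreme estimates, -11.20 for Dpt and -10.79 for Fbn1, rest on 5 reads and 1 read in WT epidermis. For Fbn1 the ratio of skin to epidermis reads was 2802, with a 95% exact interval from 503 to 110709 for counting error only. Without Epidermis WT 1, which held that read, the estimates were -11.95 for Dpt and -12.88 for Fbn1, so which of them stands farthest depends on that library. In KO mice 9 of the 10 were tested and 8 were lower in epidermis than in skin, beside 18.1% of all genes tested. The exception was Igfbp5 (log2 fold change -1.66, SE 0.63, adjusted p = 0.0885), although its KO epidermis libraries also lay below its KO skin libraries. Fmod was not tested there.

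The genotype effect differed between the tissues for 7 of the 10 genes, each more positive in epidermis than in skin, beside 9.63% of all genes tested. The difference, taken as the log2 fold change in epidermis minus that in skin, was 4.56 for Dcn (SE 0.71, adjusted p = 0.00284, edgeR), 7.34 for Dpt (SE 0.83, adjusted p = 0.000633) and 4.29 for Igfbp5 (SE 0.85, adjusted p = 0.00799). It was 4.43 for Lum, 6.22 for Ogn, 8.29 for Fbn1 and 3.98 for Eln, where WT epidermis held 6, 3, 1 and 5 reads. When a library was left out, the Fbn1 difference ran from 7.28 (without Epidermis KO 2) to 10.29 (without Epidermis WT 1, which leaves WT epidermis at 0 reads), so its size depends on single libraries. Bgn (1.30, adjusted p = 0.14), Fmod (2.94, adjusted p = 0.0746) and Sparc did not pass. The Eln difference lost its call in 12 of 21 alternatives, with adjusted p up to 0.287.

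Levels can be compared between genes only per length, for which the deposited TPM values, which are scaled for transcript length, served. In KO skin Sparc (117 TPM) and Dcn (115 TPM) led and overlapped, followed by Dpt (52.6 TPM), Bgn (34.8 TPM), Lum (21.4 TPM), Eln (8.69 TPM), Igfbp5 (8.66 TPM), Ogn (4.49 TPM), Fbn1 (2.51 TPM) and Fmod (0.46 TPM). In WT skin the order was Dcn (419 TPM), Sparc (356 TPM), Dpt (304 TPM), Igfbp5 (70.1 TPM), Lum (65.5 TPM), Bgn (43.2 TPM), Ogn (31.8 TPM), Eln (12.1 TPM), Fbn1 (9.04 TPM) and Fmod (1.93 TPM). Neighbours in this order had separate library ranges only between Dcn and Dpt and between Fbn1 and Fmod in KO skin, and between Dpt and Igfbp5, Ogn and Eln, and Fbn1 and Fmod in WT skin. Igfbp5 stood at rank 7 in KO skin and at rank 4 in WT skin. In epidermis Dcn (14.5 TPM) and Sparc (11.1 TPM) led and overlapped in KO, whereas Sparc alone led in WT, with 32.2 TPM against 1.88 TPM for Dcn.

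Over all 12 libraries the genes most like the typical profile of the 10 were sought among 11198 other genes with a mean of at least 5 CPM in WT skin. The measure was the mean absolute difference in centred log2(CPM + 0.5) from the median profile of the 10 genes, a description without a test. The closest were Htra3, Igf1, Serping1, Ifi205, Fstl1, Col5a1, Scara5, Col6a3, Col14a1 and Cd163, with differences between 0.24 and 0.35. Among the 10 genes themselves the difference ran from 0.33 (Fbn1) to 1.33 (Fmod), with Sparc at 1.2 and Bgn at 0.79. Serping1, the gene of a complement inhibitor, had 37.3, 34.6 and 73.7 CPM in KO skin, against 105, 152 and 152 CPM in WT skin. Cd163, a macrophage receptor gene, had 4.71, 6.60 and 13.6 CPM in KO skin, against 22, 23.4 and 27.7 CPM in WT skin, and in epidermis it held 28 reads in KO and 0 in WT.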

How the data were processed

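Poly(A) libraries were made from 1 ug of total RNA with a stranded kit, per the labels' protocols. Base calls came from bcl2fastq 2.17, and STAR 2.5.1, RSEM and the mm10 genome are named per the submitters' processing notes; which annotation release and strand option were used is not given in the sources used here. The authors deposited expected counts per gene, TPM values and effective lengths in bases, which are another kind of value and served only as offsets in an alternative. RSEM divides multi-mapping reads among genes, and of the values above 0 in a library 21.6% to 23.2% were not whole (tolerance 0.01). Counts were rounded.

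Gene IDs were matched to GENCODE mouse release symbols on GRCm38: 39106 with version, 47224 without, and 419 had none and stayed in the totals. The main test was edgeR 4.0.16 (R 4.3.3) with quasi-likelihood fits, TMM factors computed once over the 12 libraries, the default filter on low counts and Benjamini-Hochberg adjustment, and was tested on simulated data. The SE is the log2 fold change divided by the root of F. KO was compared with WT within each tissue, epidermis with skin within each genotype, and the difference of genotype effects in 1 fit. DESeq2 1.42.0, limma-voom (limma 3.58.1), other scalings, no filter, a replicate block, a Y-linked covariate and leaving out each library were alternatives. The 10 genes and all lists were chosen with earlier results of these data known. Named beside the 10 genes and Adam17 were the genes with the smallest adjusted p in skin, up to 3 a list, and the 10 most alike profiles. Family neighbours, Col1a1, Col3a1, Pdgfra and Pi16 were added after their values were seen. Chad, Pdgfrb, Prrx1, Twist2, Adipoq, Acta1, S100a8 and S100a9 were also named outside these rules, as were further genes of the last paragraph. Intervals are exact (Clopper-Pearson) and cover counting error only, as does the floor of 3 counts.

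Groups share replicate numbers. In skin, deviations from the group means across 11033 genes correlated at 0.396, 0.425 and 0.329 between KO and WT libraries of the same number. Between skin KO and WT libraries of unlike number the values ran from -0.551 to 0.165. In epidermis the same-number values were 0.132, 0.221 and -0.093. Epidermis WT 2 and Skin WT 3, of unlike number, reached 0.535. A pairing of the skin libraries would thus rest on the data alone and is not established. Within groups, rank correlations of 0.955 to 0.989 were found, and no 2 libraries were alike within sampling noise.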

Additional observations from a re-analysis of the deposited data

Results flagged for a closer look

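For 7 of the 10 genes the effect of the knockout in epidermis differed from that in whole skin by the test of the difference itself (edgeR, 12 libraries). Each was more positive in epidermis, as were 9.63% of all genes tested. The difference, on the log2 scale and as epidermis minus skin, was 4.56 for Dcn, 4.43 for Lum, 6.22 for Ogn, 7.34 for Dpt, 8.29 for Fbn1, 3.98 for Eln and 4.29 for Igfbp5. The Fbn1 value rests on 1 read in WT epidermis and ran from 7.28 to 10.29 when a library was left out. Lum, Ogn, Dpt and Eln held 6, 3, 5 and 5 reads in WT epidermis. The Eln difference lost its call in 12 of 21 alternatives. Dcn, Dpt and Fbn1 were called higher in KO epidermis and lower in KO skin. Lum, Ogn and Eln were too low in epidermis for a test there, and Igfbp5 did not pass in epidermis (adjusted p = 0.1). Fibroblast and collagen genes changed in these tissues as well, in both directions in epidermis. Col3a1 averaged 27.8 CPM in KO epidermis and 1.14 CPM in WT epidermis. The part of the fibroblast and collagen genes in the difference was not tested.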

How the results depend on the processing

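Of 10 genes, between 6 and 8 were called lower in KO skin under the 18 alternatives, 10 were lower in WT epidermis than in WT skin under all 16, between 7 and 9 were lower in KO epidermis than in KO skin, and between 5 and 8 passed the test of the difference between tissues. In epidermis the count called higher was 3 and was 6 in 1 fit of all 12 libraries, 7 with no filter on low counts and 7 with the share of Y-linked reads as a covariate. With that covariate, whose slope rests on the KO libraries alone, Bgn (2.02, adjusted p = 0.0135) and Igfbp5 (2.66, adjusted p = 0.00935) passed. With no filter Igfbp5 passed too (adjusted p = 0.0418), and the cause of these changes was not tested. Leaving out each library gave between 3 and 6. The skin count relative to fibroblast identity genes was 3, became 5 with collagens as denominator, and ran between 3 and 5 when a library was left out (5 without Skin KO 3 and without Skin WT 1). The Eln estimate in skin turned to 0.080 with the Y-linked covariate. The Sparc difference between tissues (-0.04) turned to 0.0085 with limma-voom and, when a library was left out, ran from -0.15 to 0.22 (0.05 without Skin WT 2, 0.22 without Skin KO 3, 0.12 without Epidermis WT 1); the cause was not tested. The Fbn1 tissue difference in KO lost its call without Skin KO 3, Epidermis KO 1 or Epidermis KO 3 (adjusted p of 0.103, 0.0885 and 0.0903), and that of Igfbp5 gained one without Epidermis KO 2 (adjusted p = 0.0116). Scaling by total counts moved the median of all genes to -0.30 in the WT tissue comparison and -0.28 in the KO one, against -0.07 and -0.06.

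With the replicate number as a block, 8 genes were lower in skin, 5 were called higher in epidermis in place of 3, and the Sparc difference turned to 0.0039 with the block by genotype and number. The block changed no other count of calls among the 10 genes. Within same-numbered skin pairs, compared after seeing the data, 4 genes were lower relative to fibroblast genes in all 3 pairs. Depth left 4 of the 10 genes with too few counts for a test in epidermis.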

Other observations

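In epidermis the wider matrix lists split in both directions in the edgeR test, and the genes named here were chosen after their values were seen. Beside these lists, 28.4% of all genes tested in epidermis were called higher and 23.1% lower, so both directions were common there. Of 15 tested elastic fibre and microfibril genes 6 rose and 5 fell in KO epidermis. Loxl2, a lysyl oxidase gene, rose by 3.57 on the log2 scale. Emilin2 held 207 reads in KO epidermis and 0 in WT epidermis, at least 65.4-fold higher when the WT group is set to 3 reads. With 0 WT reads, Emilin2 passed the filter only through KO. Efemp1, which encodes fibulin-3, fell by 1.97 and the latent TGF-beta binding protein gene Ltbp2 by 1.46. Of 15 tested matricellular genes 10 fell and 4 rose, among them Ccn1, which fell by 3.47, and Spp1 (osteopontin), which rose by 5.15 on the log2 scale. Of the 5 small leucine-rich proteoglycan genes tested outside the 10, Aspn alone fell, by 2.38, and Prelp, Tsku, Chad and Podnl1 rose. Chad and Podnl1 held 72 reads each in KO epidermis and 2 and 1 in WT epidermis, so they passed the filter only through KO. Podn (18 reads in KO, 39 in WT) and Nyx (17 and 25 reads) were not tested. The split thus describes only the genes that passed the filter. The large chondroitin sulfate proteoglycan gene Vcan rose by 4.14.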
